A study of Mus musculus with 2 samples.

Results

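The SP zinc finger genes were described from their rows in an RNA sequencing comparison of mouse primary hepatocytes. A set of 5 genes, Sp1, Sp2, Sp3, Sp4 and Sp9, was chosen by gene symbol out of 35129 in all. Sp1 to Sp4 were taken because their products share GC-box sites with KLF14, and Sp9 was taken for its higher value with KLF14 in these same libraries. The values of Sp9 are therefore a description and support nothing by themselves. The hepatocytes came from C57BL/6 mice and were infected with a KLF14 adenovirus (Ad-KLF14) or with a control virus labelled Ad-GFP, so the cells of both groups carried a virus. The series' design text calls the control an empty vector. Each group holds 1 table of values, treated as 1 library, so the conditions could not be tested against each other and the differences given are those of these 2 libraries. The values are FPKM, which count the reads of a gene per kilobase of its model and per 1000000 reads of the library.

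SP proteins are transcription factors that bind GC boxes and related GC-rich sequences through zinc fingers at their carboxyl end, and KLF proteins carry closely related fingers. Sp1, Sp3 and Sp4 activate transcription through glutamine-rich domains, Sp3 also has isoforms and a sumoylated form that repress, and Sp2 acts largely together with the CCAAT-binding factor NF-Y. Sp5 to Sp9 are developmental factors with narrower expression. In mice Sp9 acts in the outgrowth of the limb bud and in the formation of striatal and cortical interneurons, often beside its close relative Sp8. KLF14 is a member of the KLF group that can recruit the Sin3 corepressor, and it competes with SP factors for GC boxes in reporter assays. Sp6 carries Klf14 among its older names, but both symbols have a row of their own in the tables.

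The promoter windows of Sp1, Sp4 and Sp9 are shown because GC boxes are the sites that SP factors and KLF14 have in common, and because these 3 genes have 1 start in the RefSeq table each. Each window runs from 250 bases before to 50 bases after the gene's start in the build GRCm38.p6, 5′ to 3′ on the gene's strand. Capitals mark the GC box GGGCGG, or CCGCCC where it lies on the other strand. The window of Sp1 is chr15:102406066-102406365 on the plus strand, that of Sp4 is chr12:118301391-118301690 on the minus strand, and that of Sp9 is chr2:73271676-73271975 on the plus strand.
Sp1 promoter: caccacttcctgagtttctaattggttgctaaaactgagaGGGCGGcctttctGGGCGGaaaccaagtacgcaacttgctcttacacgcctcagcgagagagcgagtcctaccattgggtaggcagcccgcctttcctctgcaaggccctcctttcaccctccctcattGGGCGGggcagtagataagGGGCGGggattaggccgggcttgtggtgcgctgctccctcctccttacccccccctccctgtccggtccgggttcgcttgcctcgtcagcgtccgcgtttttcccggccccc
Sp4 promoter: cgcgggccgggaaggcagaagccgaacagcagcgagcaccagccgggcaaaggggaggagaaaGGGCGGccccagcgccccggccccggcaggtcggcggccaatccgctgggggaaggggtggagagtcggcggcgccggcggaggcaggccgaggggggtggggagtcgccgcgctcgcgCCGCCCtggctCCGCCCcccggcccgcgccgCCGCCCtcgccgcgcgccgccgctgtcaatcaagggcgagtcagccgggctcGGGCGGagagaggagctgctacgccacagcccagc
Sp9 promoter: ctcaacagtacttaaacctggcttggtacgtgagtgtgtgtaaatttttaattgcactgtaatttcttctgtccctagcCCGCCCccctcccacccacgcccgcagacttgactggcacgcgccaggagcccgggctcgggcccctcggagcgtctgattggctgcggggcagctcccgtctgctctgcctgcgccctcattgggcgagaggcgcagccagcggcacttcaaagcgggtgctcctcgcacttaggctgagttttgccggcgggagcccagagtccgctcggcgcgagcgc

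The Sp1 window held 4 GC boxes, all on the gene's own strand, and the Sp4 window held 5, of which 2 were on its own strand and 3 on the other. The Sp9 window held 1 GC box, on the other strand. Of the 2 windows of Sp3 the first held 2 boxes and the second held 5, and of the 3 windows of Sp2 only the second held any, namely 2. For comparison, 35.7% of all 32851 windows of the same length held at least 1 GC box, 5.49% held at least 4 and 2.71% held at least 5. These shares are over all windows, whose median content of G and C was 52.7%. The content was 61.7% for Sp1, 78.7% for Sp4, 63.7% for Sp9, and 66.7% and 76.3% for the windows of Sp3. For the windows of Sp2 it was 53.3%, 59.7% and 54.3%. The shares were not matched for this content. The longer box GGGGCGGGG, which contains the shorter one, was found in a window of Sp1 and in one of Sp3, and in 11.4% of all windows. A match of letters says nothing of whether a factor was bound there.

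The Ad-KLF14 library held 11151711 reads and the Ad-GFP library 11311344, as worked back from the FPKM values. The level of Klf14 was 13164 FPKM with Ad-KLF14 and 0.298 FPKM with Ad-GFP, so the overexpressed gene matched the labels. All 10 hepatocyte markers examined were above the filter on low values, with a summed level of 4871 FPKM with Ad-KLF14 and 5824 FPKM with Ad-GFP. Alb alone gave 4172 FPKM with Ad-KLF14 and 5115 FPKM with Ad-GFP of these sums. Differences were computed on log2(FPKM + 1), as Ad-KLF14 minus Ad-GFP, over the 12419 genes that averaged 1 FPKM or more. Their median log2 ratio was −0.03. The share at least 2-fold higher in the Ad-KLF14 library was 6.37%, and the share lower by as much was 8.99%. None of the hepatocyte markers passed 2-fold on this scale, though Cebpa had an FPKM ratio of 2.02 without the pseudocount. All 5 members passed the filter, Sp9 through its Ad-KLF14 value alone. Among them 1, Sp9, was at least 2-fold higher and the others were within 2-fold. Since the choice of Sp9 used this contrast, nothing is read from that count.

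The SP genes expressed in these hepatocytes were led by Sp3. Sp3, the factor with both activating and repressing forms, stood at 42.0 FPKM with Ad-KLF14 and 37.0 FPKM with Ad-GFP. Sp1, the first factor of the family to be described and an activator of many housekeeping genes, stood at 12.5 FPKM with Ad-KLF14 and 15.3 FPKM with Ad-GFP. In both libraries these were the highest and the second highest of the SP genes, and the 95% Poisson intervals of their levels lay apart. The Sp3 level was 3.35 times that of Sp1 with Ad-KLF14 and 2.42 times with Ad-GFP. Sp3 alone made up 60.0% of the summed FPKM of the 5 members with Ad-KLF14 and 60.3% with Ad-GFP, while the share of Sp1 was 17.9% with Ad-KLF14 and 24.9% with Ad-GFP.

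Sp2 was at 8.27 FPKM with Ad-KLF14 and 6.67 FPKM with Ad-GFP, next after Sp1 in both libraries. Sp4, best known for its role in neurons, was at 2.66 FPKM with Ad-KLF14 and 2.44 FPKM with Ad-GFP. It was the fourth SP gene in the Ad-GFP library, but in the Ad-KLF14 library Sp9 came before it. There Sp9 stood at 4.56 FPKM (95% Poisson interval 3.84 to 5.37), above the interval of Sp4, which ran from 2.27 to 3.09 FPKM. In the Ad-GFP library Sp9 stood at 0.0314 FPKM, which corresponds to as few as 1 read as worked back from the FPKM values. Sp9 thus made up 6.51% of the members' summed FPKM with Ad-KLF14 and 0.0512% with Ad-GFP.

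**Figure D1:**
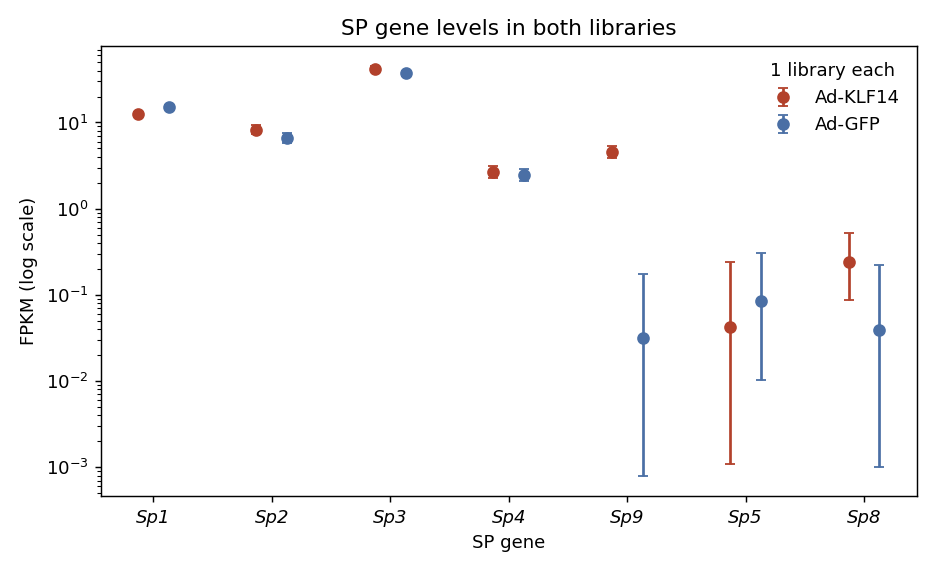
FPKM (log axis) of 7 SP genes in the Ad-KLF14 library (red, left) and the Ad-GFP library (blue, right), 1 library each, with 95% Poisson intervals that cover counting error only. Each of Sp1 to Sp4 had similar values in both libraries, Sp9 was at 4.56 FPKM with Ad-KLF14 and 0.0314 FPKM with Ad-GFP, and Sp6 and Sp7, at 0 in both, are not drawn.

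The ratios of Sp1 to Sp4 between the libraries were small and did not all have the same sign. Sp1 was lower with Ad-KLF14, with 1092 reads in the Ad-KLF14 library, against 1349 in the Ad-GFP library. Its FPKM ratio was 0.821 (95% counting interval 0.757 to 0.890), a log2 ratio of −0.27. The reads of Sp2 numbered 280 with Ad-KLF14 and 229 with Ad-GFP, a ratio of 1.24 (interval 1.04 to 1.48). Those of Sp3 numbered at least 978 with Ad-KLF14 and 874 with Ad-GFP, a ratio of 1.14 (interval 1.03 to 1.24). The intervals of Sp2 and Sp3 did not reach down to that of Sp1, so beyond counting error Sp1 stood below them in this pair of libraries.

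Sp4 had 171 reads with Ad-KLF14 and 159 with Ad-GFP. Its ratio of 1.09 had an interval of 0.874 to 1.36 that held 1 and met that of Sp1, so a difference in Sp4 was not detectable at this depth. All of these intervals come from the exact Clopper-Pearson limits of the reads of a gene and cover counting error only. They do not cover the spread between cultures, which 1 library per group cannot show. Set beside all genes kept, 31.6% of genes had a log2 ratio nearer to 0 than Sp1, 32.5% nearer than Sp2, 21.8% nearer than Sp3 and 11.2% nearer than Sp4. Each of the 4 genes therefore lay nearer to 0 than most genes. In sum, Sp1 to Sp4 had 65.4 FPKM with Ad-KLF14 and 61.3 FPKM with Ad-GFP, a ratio of 1.07.

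**Figure D2:**
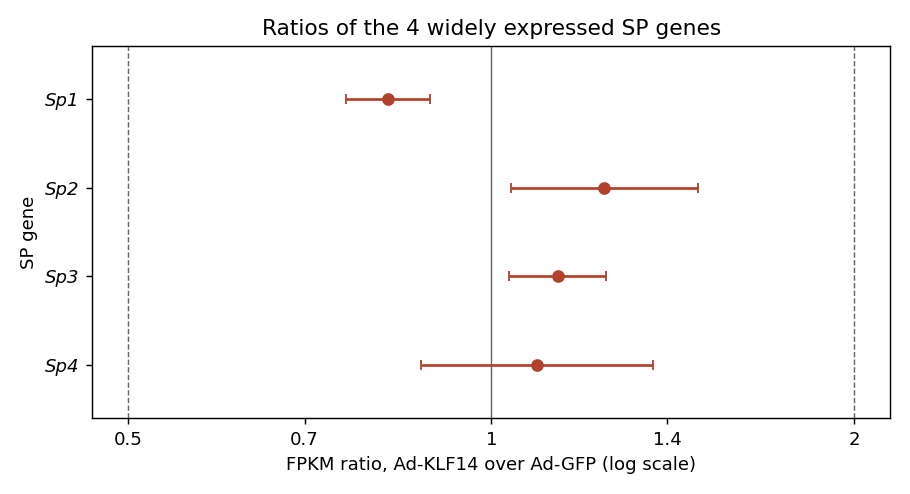
FPKM ratio, Ad-KLF14 over Ad-GFP (log axis), of Sp1, Sp2, Sp3 and Sp4 as points, with bars for the 95% counting interval, a solid line at 1 and dashed lines at 2-fold. Sp1 lay at 0.821 with its interval below 1, Sp2 at 1.24 and Sp3 at 1.14 with intervals above 1, and the interval of Sp4 crossed 1.

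Sp9 stood apart from the other members. It had 143 reads in the Ad-KLF14 library, against 1 in the Ad-GFP library, a ratio of 145 with a counting interval of 25.6 to 5769. On log2(FPKM + 1) the difference was 2.43, smaller because the added 1 FPKM outweighs the Ad-GFP value. Among the 16944 genes with a value above 0 in both libraries only Klf14 itself had a larger FPKM ratio, and among the genes kept 19 had a larger log2 ratio. Sp9 is the gene picked for this value, so these ranks describe it and test nothing. In bulk RNA, more cells with a transcript and more transcript per cell cannot be told apart.

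Near-silent genes seldom reached such a level. At most 0.1 FPKM with Ad-GFP was found for 18779 genes, and of these 54, or 0.288%, reached 1 FPKM with Ad-KLF14. At the level of Sp9 or higher there were 2, and Sp9 was the 1 among them typed as mRNA. Sp9 sets this level and was picked for its rise from near 0. Its place in this count was therefore fixed in advance and tests nothing. The 18779 genes include all that were at 0 in both libraries, since 19667 of the 35129 genes were above 0 in either. Among near-silent genes with any read the share is therefore larger. By Euclidean distance on log2(FPKM + 1) of both libraries, the 5 genes nearest to Sp9 were Notum, Snord91a, Peg3, Snord43 and Crabp1, at distances of 0.233 to 0.255. Notum, which encodes an extracellular inhibitor of Wnt proteins, was at 3.77 FPKM with Ad-KLF14 and 0.0875 FPKM with Ad-GFP, from 85 and 2 reads (ratio 43.1, interval 11.6 to 362). Peg3, an imprinted zinc finger gene, was at 4.51 FPKM with Ad-KLF14 and 0.220 FPKM with Ad-GFP, from 222 and 11 reads (ratio 20.5, interval 11.2 to 41.6). Crabp1, a carrier of retinoic acid, was at 3.75 FPKM with Ad-KLF14 and 0.119 FPKM with Ad-GFP, from 31 reads and 1 read. The values of the small nucleolar RNAs Snord91a and Snord43 rest on as few as 3 and 4 reads with Ad-KLF14, and both were listed at 0 with Ad-GFP.

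**Figure D3:**
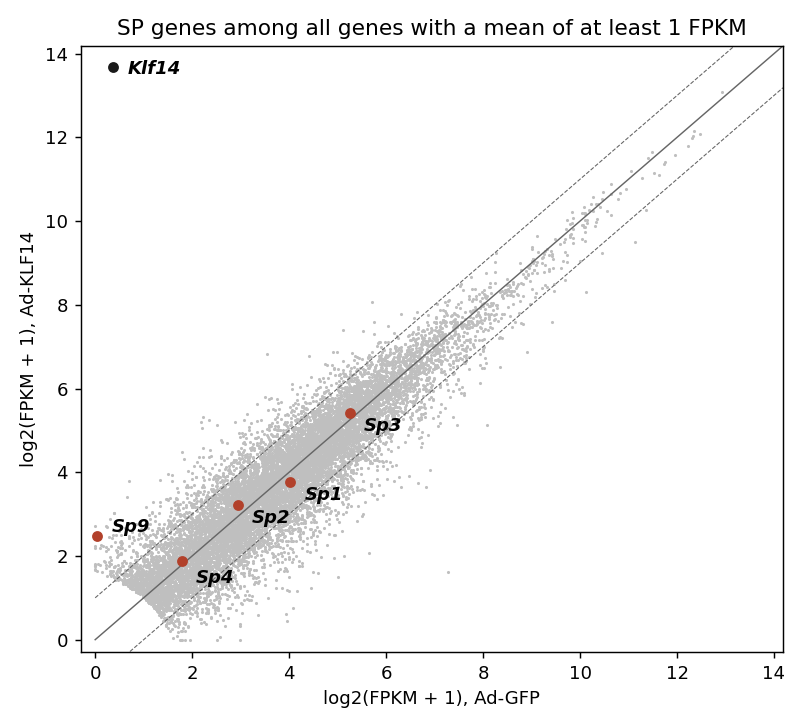
Each grey point is 1 of 12419 genes at its log2(FPKM + 1) in the Ad-GFP library (horizontal) and the Ad-KLF14 library (vertical), with the SP members in red, Klf14 in black, a solid line of equal levels and dashed lines at 2-fold. Sp1 to Sp4 lay inside the dashed lines at levels between 2.44 and 42.0 FPKM, and Sp9 lay at the left edge above them.

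The other SP genes were at or near 0. Sp8, the closest relative of Sp9, was at 0.240 FPKM with Ad-KLF14 and 0.0395 FPKM with Ad-GFP. These values rest on as few as 6 reads and 1 read, for a gene length of 2240 bases, and the interval of the ratio of 6.09 then ran from 0.738 to 280. With 12 and 2 reads the length would be 4480 bases, near the longest GENCODE transcript of 4478 bases, and the interval 1.35 to 56.0. Whether it holds 1 thus depends on the read numbers taken. Sp5, a target of Wnt signalling, had 1 read with Ad-KLF14 and 2 with Ad-GFP, below 3 reads in either library. Sp6, which acts in teeth and skin appendages, and Sp7, the osteoblast factor osterix, were at 0 in both libraries. For transcripts of their annotated lengths a count of 0 allows up to 0.0743 FPKM of Sp6 with Ad-KLF14 and 0.0732 FPKM with Ad-GFP, and up to 0.0869 FPKM of Sp7 with Ad-KLF14 and 0.0856 FPKM with Ad-GFP. Sp9 was thus the 1 developmental SP gene above 1 FPKM in a library.

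Genes that are often expressed with Sp9 in the embryonic forebrain or limb were looked at next. Of 11 such genes 7, among them Dlx5, Dlx6, Gad1, Gad2 and Isl1, were at 0 in both libraries. The other 4 had their reads mostly in the Ad-KLF14 library, and over the whole list there were 37 reads with Ad-KLF14 and 1 with Ad-GFP. Of these 37 reads, 26 were from Dlx1. Over all genes, 18348 were above 0 with Ad-KLF14 and 18263 with Ad-GFP. The share of all low genes with reads divided in this way was not computed, and the list was picked for its tie to Sp9. Nothing is therefore read from the count. The homeobox gene Dlx1 was at 0.419 FPKM with Ad-KLF14 and 0.0159 FPKM with Ad-GFP, from 26 reads and 1 read (ratio 26.4, interval 4.33 to 1081). Its neighbour Dlx2, with which it acts in interneurons, had 7 reads with Ad-KLF14 and 0 with Ad-GFP, at least 2.37-fold higher when 3 reads are set as the floor of the Ad-GFP library. Six3 had 3 reads and En1 had 1 read with Ad-KLF14, with none for either in the Ad-GFP library. None of these genes reached the filter of 1 FPKM, and their levels were below that of Sp9 in the Ad-KLF14 library.

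Markers of other cell types did not move as 1 group beside Sp9. Of 7 neural markers, which include Dlx1 and Dlx2, 3 were at 0 in both libraries, among them the synaptic gene Snap25, and Syt1 was at 0.142 FPKM with Ad-KLF14 and 0.420 FPKM with Ad-GFP. Summed neural marker levels were 0.920 FPKM with Ad-KLF14 and 0.539 FPKM with Ad-GFP. Dlx1 gave 0.419 FPKM and Dlx2 gave 0.254 FPKM of the Ad-KLF14 sum. Syt1 was lower with Ad-KLF14, and Tubb3 was level, at 0.104 FPKM with Ad-KLF14 and 0.103 FPKM with Ad-GFP. The design text also speaks of retina. Of 5 retina markers Crx and Nrl were at 0 in both libraries, while Gnat1, the transducin of rod photoreceptors, was at 4.75 FPKM with Ad-KLF14 and 0.881 FPKM with Ad-GFP, and the summed level was 5.06 FPKM with Ad-KLF14 and 1.08 FPKM with Ad-GFP. Stellate cell and fibroblast markers summed to 5.65 FPKM with Ad-KLF14 and 3.41 FPKM with Ad-GFP, endothelial markers to 6.88 FPKM with Ad-KLF14 and 11.7 FPKM with Ad-GFP, macrophage markers to 188 FPKM with Ad-KLF14 and 120 FPKM with Ad-GFP, and cholangiocyte markers to 235 FPKM with Ad-KLF14 and 795 FPKM with Ad-GFP. Single genes carried some of these sums. Tagln gave 5.43 FPKM with Ad-KLF14 and 2.81 FPKM with Ad-GFP of the stellate cell and fibroblast sum. Des, Lrat, Col1a1 and Col1a2 were near 0, with lower values with Ad-KLF14 that rest on few reads. The intervals of the ratios of Col1a1 (0.00429 to 1.81) and Col1a2 (0.201 to 1.19) held 1. Des had 3 reads and Lrat 1 read with Ad-GFP and none with Ad-KLF14. Acta2 had 1 read with Ad-KLF14 and 1 with Ad-GFP. Cd68 gave 160 FPKM with Ad-KLF14 and 71.1 FPKM with Ad-GFP of the macrophage sum, Mpeg1 was at 17.1 FPKM with Ad-KLF14 and 40.1 FPKM with Ad-GFP, and Csf1r was at 1.04 FPKM with Ad-KLF14 and 1.05 FPKM with Ad-GFP. Spp1 gave 191 FPKM with Ad-KLF14 and 681 FPKM with Ad-GFP of the cholangiocyte sum. Among the endothelial markers, Flt4 (ratio 0.406) and Oit3 (ratio 0.256) were lower with Ad-KLF14. Pecam1 was higher, at 2.03 FPKM with Ad-KLF14 and 1.12 FPKM with Ad-GFP (ratio 1.81, interval 1.23 to 2.71). The ratios of Kdr (0.993), Stab2 (0.877) and Lyve1 (1.58) had intervals that held 1. The part of any of these in the value of Sp9 was not tested.

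The members lie at 4 places in the genome (RefSeq order, GRCm38.p6). Sp3 and Sp9 are near each other on chromosome 2, and Sp2 is beside Sp6 on chromosome 11. Sp4 is on chromosome 12, where Sp8 also lies, and Sp1 is beside Sp7 on chromosome 15. None of the genes around Sp9 had a ratio of that size. Within 500 kb of the start of Sp9 lay 10 other genes with a row in the tables, 5 of them above the filter, and none of these was 2-fold apart. Ola1, a nucleotide hydrolase gene between Sp3 and Sp9, was at 34.0 FPKM with Ad-KLF14 and 35.3 FPKM with Ad-GFP. The next gene before Sp9, Gm13666, was at 0 in both libraries. On the other side the nearest gene Cir1, a corepressor gene, was at 17.4 FPKM with Ad-KLF14 and 10.1 FPKM with Ad-GFP, a ratio of 1.72 (interval 1.45 to 2.04).

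The genes that follow Cir1 were also somewhat higher with Ad-KLF14. Scrn3 was at 7.79 FPKM with Ad-KLF14 and 5.09 FPKM with Ad-GFP (ratio 1.53, interval 1.27 to 1.85), Gpr155 at 1.82 FPKM with Ad-KLF14 and 1.21 FPKM with Ad-GFP (ratio 1.50, interval 1.09 to 2.08), and Wipf1, a partner of the actin regulator WASP, at 1.22 FPKM with Ad-KLF14 and 0.623 FPKM with Ad-GFP (ratio 1.96, interval 1.25 to 3.13). Chn1, farther out, went the other way, at 0.487 FPKM with Ad-KLF14 and 1.18 FPKM with Ad-GFP (2.42-fold lower, interval 1.16 to 5.41), and Chrna1 was at 0 in both libraries. This window was chosen after the values of Sp9 were known. Around the other members most of the nearest genes were low or close together in both libraries. Beside Sp4, Cdca7l was at 4.26 FPKM with Ad-KLF14 and 4.50 FPKM with Ad-GFP. Beside Sp3, Ak3l2-ps was at 4.02 FPKM with Ad-KLF14 and 4.07 FPKM with Ad-GFP, and Hspe1-ps5 had a single read, in the Ad-KLF14 library. Gm9267, on the other side of Sp4, was at 0 in both libraries. Beside Sp1, Amhr2 was at 0.230 FPKM with Ad-KLF14 and 0.590 FPKM with Ad-GFP. Beside Sp2, D030028A08Rik was at 1.37 FPKM with Ad-KLF14 and 0.690 FPKM with Ad-GFP, from 43 and 22 reads. Its ratio of 1.98 (interval 1.16 to 3.48) was above that of Cir1 beside Sp9.

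**Figure D4:**
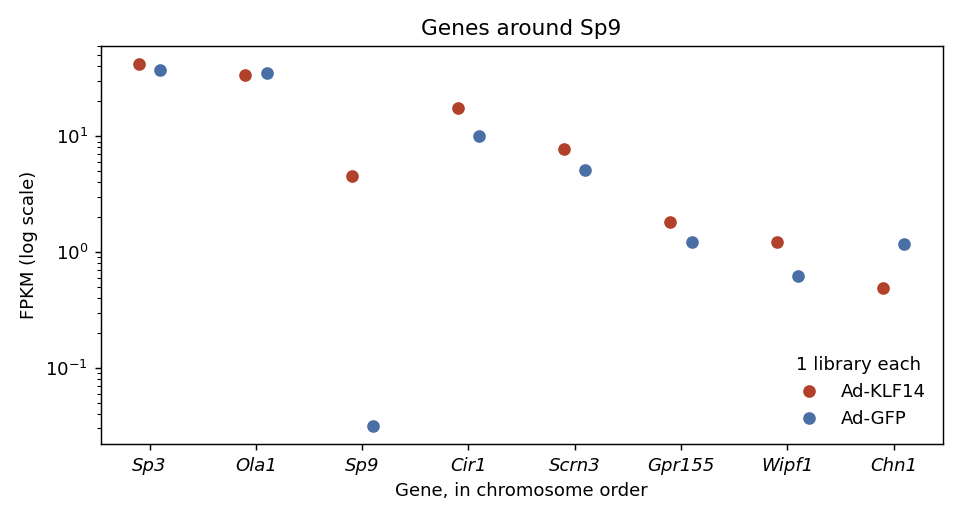
FPKM (log axis) of Sp9 and the genes within 500 kb of its start that had a value above 0 in both libraries, in chromosome order, for Ad-KLF14 (red, left) and Ad-GFP (blue, right), 1 library each. Sp9 had the widest gap, 4.56 against 0.0314 FPKM, while Sp3 and Ola1 lay close together and Cir1, Scrn3, Gpr155 and Wipf1 were 1.50 to 1.96 times as high with Ad-KLF14, and Chn1 was lower with Ad-KLF14, at 0.487 against 1.18 FPKM.

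Genes whose products work with SP factors or modify them came next. Of 27 listed, 26 had a row and all 26 passed the filter. Of these, 1 was at least 2-fold higher and 0 were lower by as much, beside 6.37% and 8.99% of all genes. The log2 ratio was above 0 for 9 and below 0 for 17, beside 51.7% below 0 over all genes. The median log2 ratio was −0.15, beside −0.03 over all genes. The gene at least 2-fold higher was Tbp, the TATA-binding protein of the general factor TFIID, at 56.7 FPKM with Ad-KLF14 and 22.5 FPKM with Ad-GFP (ratio 2.52, interval 2.26 to 2.81). Taf7, another TFIID subunit, was at 14.0 FPKM with Ad-KLF14 and 7.23 FPKM with Ad-GFP (ratio 1.94). The TFIID subunits Taf4a (ratio 1.00, interval 0.894 to 1.12) and Taf1 (ratio 0.927, interval 0.837 to 1.03) were close to level. Nfyb, a subunit of the NF-Y factor that Sp2 works with, was at 45.3 FPKM with Ad-KLF14 and 23.6 FPKM with Ad-GFP (ratio 1.92). The NF-Y subunit Nfya went the other way, with a ratio of 0.595 (interval 0.513 to 0.688). Nfyc had a ratio of 0.884 (interval 0.773 to 1.01). Mgea5, the enzyme that takes O-linked N-acetylglucosamine off proteins such as SP1, was at 34.8 FPKM with Ad-KLF14 and 68.5 FPKM with Ad-GFP (ratio 0.509, interval 0.481 to 0.538). The partner enzyme Ogt, which adds this sugar, was at 19.9 FPKM with Ad-KLF14 and 23.9 FPKM with Ad-GFP (ratio 0.834).

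Genes with well-studied GC boxes in their promoters went both ways. Of 23 examined, 20 passed the filter, 1 was at least 2-fold higher and 3 were lower by as much, beside 6.37% and 8.99% of all genes, with 8 above 0 and 12 below and a median log2 ratio of −0.11. Fasn, which makes fatty acids, was the higher one, at 35.7 FPKM with Ad-KLF14 and 15.4 FPKM with Ad-GFP (ratio 2.31, interval 2.19 to 2.45). Thymidine kinase 1, Tk1, was at 3.86 FPKM with Ad-KLF14 and 22.1 FPKM with Ad-GFP (ratio 0.175, interval 0.130 to 0.231). The TGF-beta receptor gene Tgfbr1 was at 3.45 FPKM with Ad-KLF14 and 8.66 FPKM with Ad-GFP (ratio 0.398). Tgfbr2, a TGF-beta receptor gene of the same list named after its values were seen, went the other way. It was at 36.3 FPKM with Ad-KLF14 and 23.8 FPKM with Ad-GFP (ratio 1.52, interval 1.42 to 1.64). The third of the lower genes was Maoa, which breaks down monoamines, at 13.6 FPKM with Ad-KLF14 and 29.0 FPKM with Ad-GFP (ratio 0.467). Its relative Maob, named after its values were seen, had an FPKM ratio of 0.489 and was under 2-fold once the pseudocount was added.

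KLF genes other than Klf14 were found on both sides of 2-fold. Of 16, 13 passed the filter, 1 was at least 2-fold higher and 3 were lower by as much on the scale with the pseudocount, beside 6.37% and 8.99% of all genes, with a median log2 ratio of 0.14. Klf5 had an FPKM ratio of 2.04 and was under 2-fold with the pseudocount, and Klf12, with a log2 ratio of 0.14, lay nearer to 0 than Sp1, Sp2 and Sp3. Both were named after their values were seen. Klf10 had 61.5 FPKM with Ad-KLF14 and 26.8 FPKM with Ad-GFP, and Klf4 had 4.12 FPKM with Ad-KLF14 and 10.4 FPKM with Ad-GFP. The log2 ratio was −2.44 for Klf13 and −1.29 for Klf16. The median log2 ratio of Sp1 to Sp4 was 0.13, and 0.18 with Sp9, which was picked for its value in this contrast. No difference between the families was tested.

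**Figure D5:**
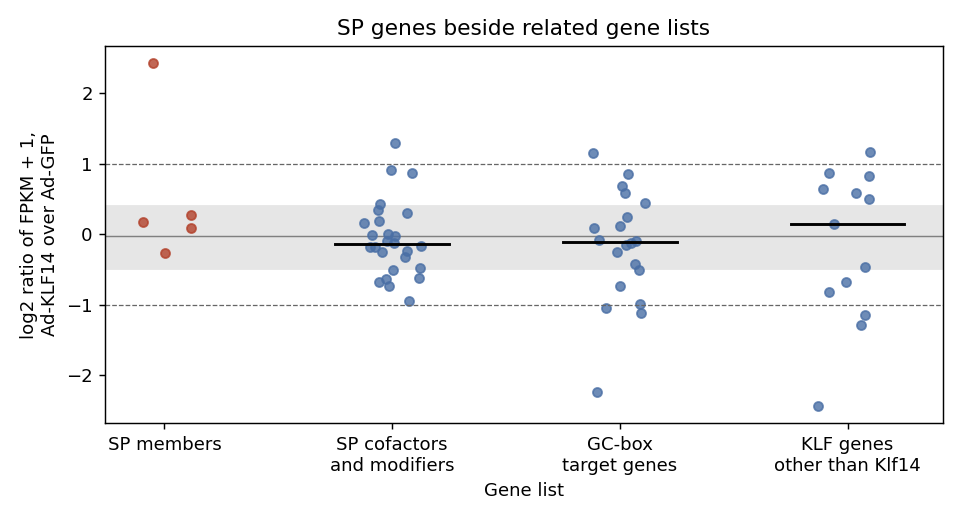
Log2 ratio on FPKM + 1, Ad-KLF14 over Ad-GFP, of the 5 SP members (red) and of the measured genes of 3 related lists (blue), 1 point per gene, with a black bar at the median of each related list, the grey band for the middle 50% of all genes kept and dashed lines at 2-fold. Sp1 to Sp4 lay inside the band and Sp9 at 2.43, while Tbp, Fasn and Klf10 lay above the upper dashed line and Tk1, Tgfbr1, Maoa, Klf13, Klf16 and Klf4 below the lower one.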

How the data were processed

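Total RNA of mouse primary hepatocytes was extracted with Trizol and prepared for sequencing with an Illumina TruSeq kit, per the labels' protocols. The mm8 build and Bowtie 0.12.2 were used per the submitters' processing notes. The gene models, the counting rule, the use of strand, the treatment of reads with several matches and any pooling of cultures are not given in the sources used here. The series' design text speaks of triplicates of retina and may describe another study in part. The authors deposited FPKM values, 1 table per library, for 35129 symbols.

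Reads were worked back from the FPKM values. The FPKM ratio of a gene, divided by 1 shared constant, was a fraction of whole numbers for 16943 of 16944 genes above 0 in both (relative tolerance 1e-11). The totals of 11151711 and 11311344 reads use the largest factor, 9, at which gene lengths implied by 679 genes with equal reads mostly stayed whole. Reads per gene are the smallest numbers that give a whole length, so they are lower limits. The implied lengths were 7818 bases for Sp1, 3036 for Sp2, 5770 for Sp4 and 2813 for Sp9. That of Sp3 was 2089 bases, and 4178 with doubled reads, which lies near its longest GENCODE transcript of 4181 bases. With doubled reads the interval of Sp3 was 1.06 to 1.21.

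Intervals are exact at 95% and cover counting error only. A floor of 3 reads was used for genes at 0. The pseudocount was 1 FPKM and the filter a mean of at least 1 FPKM. Promoter windows are those of RefSeq (GRCm38.p6), which is not the build of the files, and all 5 members had one. Python 3.11.15, numpy 2.4.6 and scipy 1.17.1 were used. The steps were tested on simulated data with gene lengths redrawn at random and other library totals. How well reads are recovered at the real gene lengths was therefore not tested. The members and lists were chosen with earlier results of these data known. Genes named are the members, Klf14, the other SP genes, the 5 genes nearest to Sp9, the next gene on each side of each member and up to 4 genes per list with the largest log2 ratios. Other genes, such as Ogt and the genes within 500 kb of Sp9, were named after their values were seen. Some listed genes are not reported here and were left out of the lists. Alternatives were pseudocounts of 0.1 and 5 FPKM, 4 scalings of the libraries, other filters and a longer GC box.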

Additional observations from a re-analysis of the deposited data

How the results depend on the processing

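The log2 ratios of Sp1 (−0.28 to −0.21), Sp2 (0.19 to 0.34), Sp3 (0.16 to 0.23) and Sp4 (0.04 to 0.15) kept their sign and stayed within their counting intervals under 2 other pseudocounts and 4 scalings. That of Sp9 was 2.43, and became 5.15 with a pseudocount of 0.1 FPKM, 0.93 with 5 FPKM, which is below 2-fold, and 3.31 with both libraries scaled to a sum of 1000000, since the pseudocount then weighs less against the values. With a pseudocount of 5 FPKM, 295 genes in place of 791 were at least 2-fold higher, and 467 in place of 1117 were lower by as much. No scaling moved the median of all genes by over 0.05. The median log2 ratios of the 3 related lists were computed for the 2 pseudocounts, the 4 scalings and no filter on low values. They ran from −0.15 to −0.10 for SP cofactors, −0.11 to −0.06 for GC-box target genes and 0.06 to 0.21 for KLF genes. They were not computed for the filter of 5 FPKM. That filter would drop Klf12, whose log2 ratio of 0.14 was the KLF median, so the sign of the KLF median there is not shown. A GC box was found for all 5 members and the longer box GGGGCGGGG for 2. Log2 ratios by the number of promoter GC boxes are not reported, because 78.9% of the mRNA genes kept could be matched to a promoter window, below the 80% set as the minimum, so the check is void. No replicate could be left out and no paired analysis was possible because each group has 1 library. Depth limits Sp5 and the Ad-GFP value of Sp9, which rest on 1 or 2 reads, and Sp8, with as few as 6 and 1 or, at doubled length, 12 and 2.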
